A study of Mus musculus with 6 samples.

Results

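Effector memory CD4 T cells are helper T cells that have already met antigen. They carry the adhesion receptor CD44 at high density, keep little of the lymph node homing receptor CCR7, and circulate between blood, spleen and peripheral tissues. Part of them bear CXCR3, which binds the interferon-induced chemokines CXCL9 and CXCL10, or CXCR6, which binds CXCL16. Regulatory T cells, which also lose the naive programme, are set apart by the transcription factor Foxp3, and naive cells by the transcription factor Lef1.

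Here, 232 Foxp3-negative effector memory CD4 T cells were described among 1872 CD4 T cells and 29005 barcodes of mouse spleen. They were measured by CITE-seq, which counts the RNA and the DNA tags of surface antibodies of the same cell. The groups of the study are aged mice given platelet factor 4 (PF4), a platelet chemokine, aged mice given saline, and young mice given saline. All were male C57BL/6 mice, 20, 20 and 3 months old, that received 8 tail vein injections of 100 µL over 24 days, with PF4 at 5 µg/mL in the first group. Splenocytes of 5 mice were pooled for each group after lysis of red cells, so no value can be traced to a mouse. The deposited matrix joins 3 libraries that are told apart only by a barcode suffix, and it is not known which suffix belongs to which group. The libraries are therefore called 1, 2 and 3, age and PF4 were not compared, and with 1 library per group there is no test. Intervals are exact 95% intervals (Poisson for levels, Clopper-Pearson for shares) and cover counting error only.

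The cells were chosen by measured values. A barcode with 300 to 5000 genes and at most 10% mitochondrial UMIs (unique molecular identifiers, each standing for 1 captured molecule) entered the CD4 gate with at least 41 CD4 antibody counts, at most 64 CD8a counts, at least 1 UMI of the T cell receptor chains Cd3d, Cd3e or Cd3g and no UMI of the B cell gene Cd79a. From the 357, 621 and 894 gated cells of libraries 1, 2 and 3, those with a UMI of Foxp3 (197 cells, called regulatory) and those with 2 or more of the genes Pdcd1, Cxcr5, Sostdc1, Tox2 and Maf (217 cells, called follicular helper-like) were set aside. The remainder was split by Lef1 and by S100a4 or Itgb1, a calcium-binding protein and an integrin chain that activated T cells gain. Cells without Lef1 and with at least 1 UMI of S100a4 or Itgb1 are the effector memory cells, 72, 87 and 73 in the 3 libraries. Cells with Lef1 and without S100a4 and Itgb1 are the naive cells used beside them (750), a further 291 had both signs and 185 had neither. Memory-like CD8 T cells (362) were gated on CD8a with the same RNA limits on Lef1, S100a4 and Itgb1.

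Effector memory cells made up 20.2% (16.1 to 24.7) of gated cells in library 1, 14.0% (11.4 to 17.0) in library 2 and 8.17% (6.45 to 10.2) in library 3. The intervals of libraries 1 and 3 lay apart, and the interval of library 2 overlapped that of library 1 but not that of library 3. Naive cells ran the other way, with 26.1%, 31.1% and 51.9%. The limits of the rule removed unequal parts of the libraries. The limit on Cd79a, a gene whose RNA also reaches barcodes of other cells, took 14.2%, 29.7% and 35.5% of T cells in libraries 1, 2 and 3, and the limit on Lef1 took 49.8%, 55.7% and 80.1% of what was left. With up to 1 Cd79a UMI allowed, the shares were 21.3%, 14.3% and 8.69%.

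**Figure D1:**
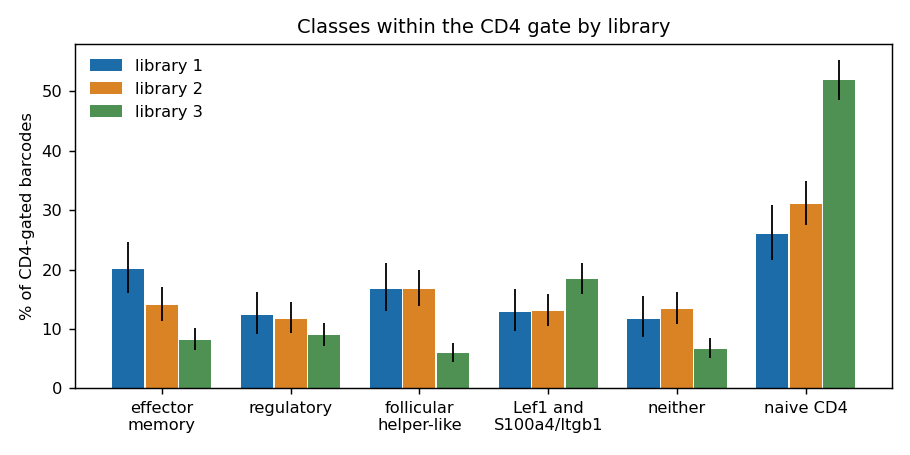
Share of CD4-gated barcodes (y axis, %) in each class (x axis) for libraries 1 (blue), 2 (orange) and 3 (green), with exact binomial 95% intervals as lines. Effector memory cells take 20.2%, 14.0% and 8.17% of the gate, and naive cells 26.1%, 31.1% and 51.9%.

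The effector memory cells held 259493, 308905 and 230250 RNA UMIs, at a median of 3258.5, 3697 and 3428 UMIs and 1601, 1672 and 1529 genes per cell. Naive cells were deeper, with a median of 4760.5 UMIs over the libraries. Levels are given as counts per 1000000 RNA UMIs (CPM) of a class in a library, where 3 counts of effector memory cells equal 11.6, 9.71 and 13.03 CPM. Of the members, 2 had a barcode sequence that also occurs under another suffix, and no sequence was shared between members. A doublet caller (Scrublet) marked none of the 232.

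The label was checked on the antibody side, which the rule used only for CD4 and CD8a. CD44 antibody counts had a median of 175 in effector memory cells of library 1, 224 in library 2 and 210 in library 3, against 46, 40 and 44 in naive cells. The lower quartiles of effector memory cells (114, 136 and 94) lay above the upper quartiles of naive cells (69, 59 and 63) in every library. As a share of all antibody counts, CD44 was 2.95, 4.01 and 3.66 times the naive share. Memory-like CD8 cells had a median of 211.5 CD44 counts, follicular helper-like cells 209, regulatory cells 95 and B cells 59.

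CD44 was graded within the class. Cells admitted by a single UMI of S100a4 or Itgb1 (65 cells) had a median of 111 CD44 counts and 30.8% of them had a Ccr7 UMI. Cells with 2 such UMIs (33) had 161 and 21.2%, and those with 3 or more (134) had 248.5 and 13.4%. In each library, cells with a single UMI had a lower median (124, 112.5 and 105) than cells with 3 or more (204, 255 and 260). The 4 cells of library 3 with 2 UMIs had the lowest, 65. Just outside, 64 cells that failed only by 1 Cd79a UMI had a median of 203.5 CD44 counts, 117 cells that failed only by 1 Lef1 UMI had 164, and 20 cells with 21 to 40 CD4 counts had 192.5, beside 225 for the 18 members with 41 to 60 CD4 counts. The 291 cells with both signs had a median of 77, and the 185 with neither sign, which were shallow (median 1725 UMIs), had 66.

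**Figure D2:**
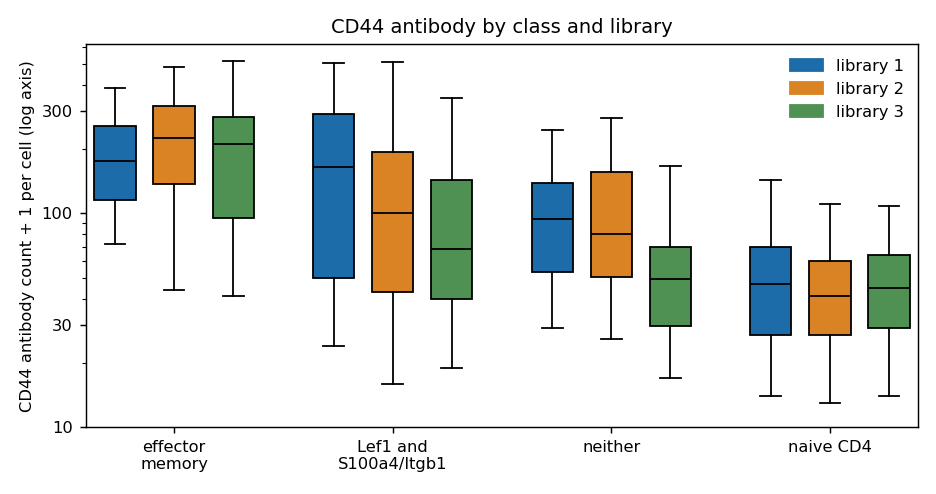
CD44 antibody count plus 1 per cell (y axis, log scale) in effector memory cells, in cells with both Lef1 and S100a4 or Itgb1, in cells with neither, and in naive CD4 cells, for libraries 1 (blue), 2 (orange) and 3 (green). Boxes span the quartiles with the median as a line, and whiskers the 5th to the 95th percentile. The medians of effector memory cells are 175, 224 and 210, against 46, 40 and 44 in naive cells.

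Among the 32 antibodies that the rule did not use, 2 (6.25%) had a share at least 2 times that of naive cells in every library, CD44 and CD38. The ectoenzyme CD38 had a median of 38, 21 and 18 counts in effector memory cells, against 7, 9 and 11 in naive cells, a share 3.61, 2.12 and 2.06 times as large. T cell receptor beta chain was lower in every library, with medians of 91, 96 and 76 counts against 113, 111 and 111, and so was the costimulatory receptor CD27 with 31.5, 30 and 30 against 35, 35 and 39.5. Antibodies to CCR2 (37, 44 and 41 counts in effector memory cells, against 35, 42 and 41 in naive cells), NK-1.1 (5, 5 and 7 against 4, 5 and 6) and PD-1 (6, 8 and 5 against 4, 6 and 6) had medians close to those of naive cells. CD25, the interleukin 2 receptor alpha chain, had medians of 5, 7 and 7 in effector memory cells, against 4, 5 and 6 in naive cells and 17 over the regulatory cells.

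The RNA of effector memory and naive cells was then set side by side. Since the members were chosen on RNA of these same cells, and naive cells on the opposite values of the same genes, the differences are descriptions. A gene was called where its CPM differed at least 2 times in the same direction in every library, with libraries under 3 counts set to 3 counts, among genes whose mean over both classes was at least 50 CPM. The 13 genes of the rule were left out. A gene nearly absent from naive cells passes the level limit only where it is high in the class. Counts and medians of the gene lists below therefore follow in part from that limit. Of 3151 genes, 99 (3.14%) were called higher and 16 (0.508%) lower in effector memory cells, 86.1% higher among the calls. Scaling by TMM, a trimmed mean of gene ratios, moved the median log2 ratio of all genes from 0.20 to -0.11, past no change. It gave 62 higher and 46 lower calls, 57.4% higher.

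The genes furthest above naive cells in every library were S100a6, Ttn, Nkg7, Cxcr3, Gpm6b, Ccr2, Fam129a, Il2rb, Cxcr6 and Ccl5. S100a6, a calcium-binding protein of migrating cells, stood at 1457, 1337 and 769 CPM in effector memory cells, against 32.6, 39.3 and 15.7 CPM in naive cells, a ratio of 50.8 (40.6 to 64.4) over the libraries. Il2rb, the beta chain of the interleukin 2 and interleukin 15 receptors, stood at 304, 249.3 and 230.2 CPM against 18.6, 18.0 and 18.5 CPM. Both genes were far apart between the classes, and within the effector memory class the intervals of all libraries overlapped for Il2rb, while for S100a6 library 3 lay below libraries 1 and 2.

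**Figure D3:**
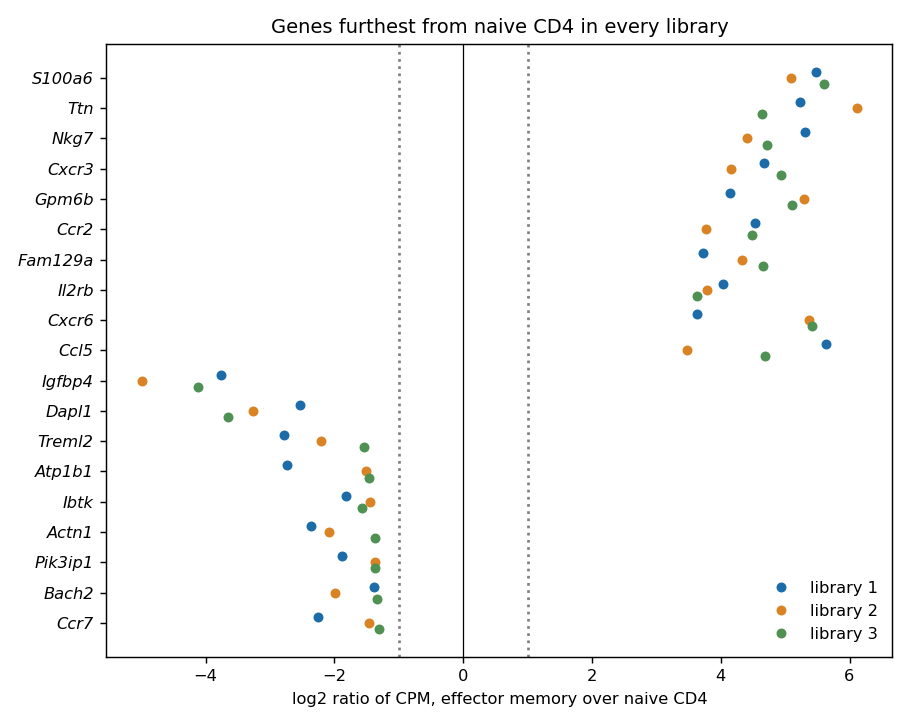
Log2 ratio of CPM, effector memory over naive CD4 cells (x axis), of the 10 genes furthest above and 9 of the genes furthest below naive cells in every library (y axis), 1 point per library in blue (1), orange (2) and green (3). Dotted lines mark a ratio of 2 in each direction. Igfbp4 lies furthest below naive cells in every library.

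CXCR3 and CXCR6 are the chemokine receptors among the markers of the class, and the rule did not use them. Cxcr3 stood at 177 (129.8 to 236), 181 (137 to 235) and 113 (73.8 to 165) CPM in effector memory cells, against 4.65, 10.1 and 3.70 CPM in naive cells, a ratio of 29.4 (18.0 to 50.3). A Cxcr3 UMI was found in 28, 32 and 17 members, 33.2% of all. Cxcr6 stood at 173 (126 to 232), 139 (101 to 188) and 217 (161 to 286) CPM, against 14.0, 2.25 and 5.09 CPM, a ratio of 31.6 (19.5 to 54.2). A Cxcr6 UMI was found in 14, 14 and 17 members, 19.4%. For both genes the intervals of the 3 libraries overlapped within the effector memory class and lay above those of naive cells in each library.

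The shares of cells with a UMI stood well above the background from free RNA. In B cells, at a median of 3284 UMIs beside 3480 in the class, 1.48% had a Cxcr3 UMI and 0.211% a Cxcr6 UMI. With every cell thinned to 1000 UMIs, which left out 14 members, 14.2% of effector memory cells had a Cxcr3 UMI, against 0.405% of naive and 0.427% of B cells, and 11.9% had a Cxcr6 UMI, against 0.135% of naive cells.

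The Cxcr3 gene spans chromosome X 101731535 to 101734269 (mm10, minus strand), and the Cxcr6 gene chromosome 9 123806475 to 123811760 (plus strand). The bases upstream of their starts are shown because both markers stood far above naive cells, from the RefSeq promoter table of GRCm38.p6, 5′ to 3′ and cut where the annotated gene begins (chrX:101734270-101734397, minus strand, and chr9:123806227-123806474, plus strand). Capitals mark a match to the 6 letters of a RUNX motif, TGTGGT or its complement.
Cxcr3: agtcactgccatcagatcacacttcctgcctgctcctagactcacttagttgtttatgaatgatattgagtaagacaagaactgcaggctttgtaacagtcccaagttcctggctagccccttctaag
Cxcr6: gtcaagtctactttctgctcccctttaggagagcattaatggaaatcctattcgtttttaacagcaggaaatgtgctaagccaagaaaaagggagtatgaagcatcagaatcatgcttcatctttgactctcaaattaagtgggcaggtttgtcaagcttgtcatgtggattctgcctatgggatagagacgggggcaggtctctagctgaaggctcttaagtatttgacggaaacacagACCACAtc
Over the full 250 bases of the table, Cxcr3 also held 1 match, which lies within the bases not shown, and neither window held the T-box letters GGTGTG on either strand. Of 32851 promoters of the same length, 14.0% held the RUNX letters and 16.3% the T-box letters, and of the 69 promoters found for the 99 genes called higher, 11 (15.9%) and 15 (21.7%) did. The letters are thus common, and a match is a description of the sequence. Ccl5 and Il2rb are named here without a sequence.

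Genes of T helper 1 (Th1) cells, the interferon-gamma producing type, were largely above naive cells. Of 12 listed genes, 7 reached the level limit and 6 were called higher, with a median log2 ratio of 3.34, beside 0.20 for all genes. Some of them, such as Cxcr3, were nearly absent from naive cells and reached the limit only through the class. The count and the median are thus descriptions of these genes. Over all tested genes, 3.14% were called higher. Besides Cxcr3, Cxcr6 and Ccl5 the genes called higher were Id2, Hopx and Il18r1. Id2, an inhibitor of E proteins, stood at 509, 518 and 495 CPM in effector memory cells, against 32.6, 59.6 and 51.9 CPM in naive cells. Il18r1, the interleukin 18 receptor, stood at 119, 159 and 195 CPM, against 41.9, 60.7 and 48.1 CPM. Tbx21, the transcription factor that defines Th1 cells, lay under the level limit with 19.3, 38.8 and 21.7 CPM, against 2.33, 3.37 and 1.85 CPM, in 18 members. Ifng itself gave 17 UMIs in 13 members and none in naive cells.

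Lists of the other helper types held few genes at a measurable level. Of the T helper 17 list, Rora alone was tested, with 116, 123 and 122 CPM in effector memory cells, against 9.31, 11.2 and 8.80 CPM in naive cells. Il17a, Il17f and Il22 gave no UMI. Of the T helper 2 list, Gata3 was called higher with 104, 107 and 126 CPM, against 32.6, 41.6 and 49.1 CPM. Plac8, the other tested gene, was not called. Il4 gave 8 UMIs, and Il5 and Il13 none. The Rora and Gata3 levels of the 3 libraries lay within each other's intervals.

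Cytotoxic genes were uneven. Of 14 listed genes, 4 were tested and 2 called higher, beside 3.14% of all tested genes. Nkg7, a granule membrane protein, stood at 925, 382 and 291 CPM in effector memory cells, against 23.3, 18.0 and 11.1 CPM in naive cells, and was detected in 76 members (32.8%, beside 3.42% of B cells). Ctsw, a cathepsin of cytotoxic cells, stood at 131, 87.4 and 82.5 CPM, against 23.3, 14.6 and 18.1 CPM. Gzmk and Runx3 were not called, Gzmb gave 16 UMIs, and Prf1 gave 24 UMIs at 30.1 CPM against 27.0 CPM over the naive cells.

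Ccl5, a chemokine of memory and cytotoxic lymphocytes, differed widely between libraries and cells. It stood at 10548 (10156 to 10950.2), 1988 (1834 to 2151) and 808 (696 to 933) CPM in effector memory cells, against 212, 179 and 31.5 CPM in naive cells. The 3 libraries lay apart from one another, and each lay above its naive cells. Its UMIs were found in 39, 37 and 19 members, and those cells held a median of 22, 3 and 4 and at most 434, 245 and 56 Ccl5 UMIs. At least 10 Ccl5 UMIs were held by 26, 12 and 7 members. Since 18.3% of B cells and 7.26% after thinning also had a Ccl5 UMI, cells with few UMIs cannot be told from background.

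Genes of the naive and quiescent state lay lower. All 15 listed genes were tested, 7 were called lower and none higher, with a median log2 ratio of -0.87. Over all tested genes, 0.508% were called lower. Igfbp4, which binds insulin-like growth factors and marks naive CD4 cells, stood at 42.4, 16.2 and 21.7 CPM in effector memory cells, against 572, 512 and 378 CPM in naive cells. Dapl1, also a naive T cell gene, stood at 61.7, 29.1 and 26.1 CPM, against 358, 281 and 328 CPM. Ccr7 stood at 54.0, 100.4 and 113 CPM, against 258, 278 and 280.1 CPM. Ccr7 was lower but present, with a UMI in 45 members. The transcriptional repressor Bach2 (43.8 CPM, against 147 CPM over the naive cells), the genome organiser Satb1 (215 against 709.8 CPM, at a ratio of 0.498 in library 3, near the limit) and the cytoskeletal gene Actn1 (66.4 against 255 CPM) were also called lower.

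Other genes of that list did not reach the ratio of 2 in every library. Tcf7, the factor that keeps T cells able to renew, stood at 212, 444 and 491 CPM in effector memory cells, against 709.7, 692 and 611 CPM in naive cells, at ratios of 0.299, 0.641 and 0.803. Klf2, which drives exit from lymphoid organs, stood at 455, 511 and 421 CPM, against 507, 582 and 487 CPM. Il7r, the receptor for the survival cytokine interleukin 7, stood at 829, 774 and 916 CPM, against 551, 509 and 642 CPM, and was higher in each library without reaching the ratio of 2. Of the 7 tested survival cytokine receptors, Il2rb alone was called, as higher, beside 3.14% of all tested genes.

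The S100, annexin and galectin list, made of calcium- and sugar-binding proteins of motile cells, had 13 of 14 genes tested and 8 called higher, with a median log2 ratio of 1.996. Over all tested genes, 3.14% were called higher. Ahnak, a giant scaffold protein, stood at 867, 952 and 873 CPM in effector memory cells, against 65.2, 87.7 and 48.1 CPM in naive cells. S100a10, the partner of annexin A2, stood at 1152, 1059 and 717 CPM, against 282, 348 and 259.7 CPM. Lgals1, the gene of galectin-1, stood at 424, 466 and 243 CPM, against 95.4, 88.8 and 100.0 CPM. S100a11, Anxa2, Lgals3, Capg and S100a6 were the others called, while Crip1 (1079 against 717 CPM over the libraries) and Vim (404 against 173 CPM) were not. The Lgals3 call rests on 8 members with RNA of other lineages, described below. Without them Lgals3 stood at 44.2, 53.3 and 71.2 CPM in libraries 1, 2 and 3, too low for a call under these limits.

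Among integrins and adhesion genes, 4 of 8 tested were called higher, beside 3.14% of all tested genes. Itga4, the integrin alpha 4 chain that pairs with Itgb1, stood at 1009.7, 838 and 834 CPM in effector memory cells, against 314, 337 and 314 CPM in naive cells. Itgal, a chain of the leukocyte integrin LFA-1, stood at 285, 265 and 387 CPM, against 97.7, 133 and 137 CPM. Cd44 RNA stood at 127, 181 and 208 CPM, against 25.6, 28.1 and 29.6 CPM, which goes the same way as its antibody. Cd226, an activating receptor, was the other one called. Itgb7 and Selplg were not called, at 306 against 215 CPM and 295 against 259.5 CPM.

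Of the chemokine and egress receptors, Ccr2, Cxcr3 and Cxcr6 were called higher and Ccr7 lower among 7 tested. Of all tested genes, 3.14% were called higher and 0.508% lower. Ccr2 and Cxcr6 were not called without the members with an innate-like gene, described below. Ccr2, the receptor for CCL2, stood at 162, 61.5 and 82.5 CPM in effector memory cells, against 2.33, 4.49 and 3.70 CPM in naive cells, in 36 members. The CCR2 antibody, as given above, had nearly the median of naive cells. The level of Ccr2 lies close to the limit of 50 CPM, and it was not called with library 1 left out or after leaving out 8 members with RNA of other lineages, described below. Ccr9, the gut homing receptor, was found in 4, 4 and 8 members at 50.1, 25.9 and 130.3 CPM.

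Costimulatory and checkpoint receptors formed a further group, with 4 of 8 tested genes called higher, beside 3.14% of all tested genes. Icos stood at 131, 123 and 152 CPM in effector memory cells, against 41.9, 38.2 and 26.9 CPM in naive cells. Tnfrsf18, which encodes GITR, stood at 193, 162 and 117 CPM, against 53.5, 55.1 and 45.8 CPM. Nt5e, the ectoenzyme CD73, stood at 100.2, 126 and 99.9 CPM, against 32.6, 31.5 and 18.1 CPM. Tnfrsf4, which encodes OX40, was called as well and is described with the libraries. Cd27 RNA was level, at 274 against 266 CPM, although its antibody was lower, and Cd28 stood at 318 against 216 CPM.

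Several lists of activation lay nearer the median of all genes. Of 6 tested immediate early genes, 3 of the TNF and NF-kB feedback list, 3 heat shock genes and 4 cytokines, none was called in either direction, with median log2 ratios of 0.33, 0.44, 0.32 and 0.42 beside 0.20 for all genes. Ly6a, which encodes Sca-1, was the 1 of 4 tested interferon response genes called higher, with 620.4, 579 and 365 CPM in effector memory cells, against 214, 205 and 157 CPM in naive cells. For each of these lists and the next, the share over all tested genes was 3.14% higher and 0.508% lower. Among receptors and partners of PF4, 3 were tested. Cxcr3 and Cd44 were called and are given above, and Cd74 stood at 424, 385 and 556 CPM, against 90.8, 229 and 320.4 CPM. Cd74 RNA averaged 10636 CPM in B cells, and its part in T cell barcodes was not tested.

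Ikzf2, which encodes Helios, marked the largest of 3 subgroups described here, the others being marked by Cxcr6 and by Gzmk or Eomes. It is a transcription factor best known from regulatory T cells. It stood at 428, 541 and 330.1 CPM in effector memory cells, against 41.9, 25.8 and 18.5 CPM in naive cells, and at 1998, 2368 and 1238 CPM in regulatory cells. A UMI was found in 33, 38 and 27 members, 42.2% of all, beside 0.846% of B cells. The effector memory class thus lay between the naive and the regulatory cells in every library. Ikzf2 and the CD25 gene Il2ra together stood at 459, 573 and 378 CPM in the class. In follicular helper-like cells, also chosen without Foxp3, the pair stood higher, at 768, 846 and 688 CPM.

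Members with an Ikzf2 UMI (98) were compared with those without (134), a description in which the first group was shallower (median 2966.5 against 3728.5 UMIs). Nrp1, the receptor neuropilin-1, was found in 48.0% against 17.9%, Izumo1r, the folate receptor 4 of regulatory and anergic cells, in 44.9% against 24.6%, and Tnfrsf4 in 30.6% against 14.2%. Ctla4, an inhibitory receptor, stood at 148 against 27.1 CPM, beside 230.1 CPM in regulatory cells. Il2ra, the gene of CD25, stood at 53.4 against 24.98 CPM, beside 208.6 CPM in regulatory cells. A Ccr7 UMI was found in 11.2% against 25.4% and a Gzmk UMI in 5.10% against 18.7%. Their CD44 antibody medians were 205.5 and 196.5. Regulatory genes therefore went together in part of the Foxp3-negative class, and since Foxp3 itself stood at only 505 CPM in the regulatory cells, which were chosen by it, a regulatory cell without a Foxp3 UMI cannot be told from a cell without Foxp3. Without the Ikzf2 members, 134 cells remained, 67 genes were called higher and 9 lower, and 59 of the 67 were among the 99.

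Cxcr6 marked a smaller subgroup with innate-like features. Among the 45 members with a Cxcr6 UMI, Klrb1c, the gene of the natural killer receptor NK1.1, was found in 35.6%, against 1.07% of the 187 without. Ccr9 was found in 28.9% against 1.60%, Ccr2 in 53.3% against 6.42%, Tbx21 in 26.7% against 3.21% and Nkg7 in 75.6% against 22.5%. Id2 stood at 1196 against 256.6 CPM, while Nrp1 (32.7 against 220.7 CPM) and Izumo1r (65.4 against 299.4 CPM) were lower. Cells with a Cxcr6 UMI were deeper (median 4554 against 3146 UMIs), and the part of depth in the detection shares was not tested. Their median CD44 antibody count was 268, against 179.

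Klrb1c and Zbtb16 are also expressed by natural killer T and other innate-like T cells, which the rule does not set apart. A UMI of Zbtb16, Trdc, Tcrg-C1, Tcrg-C2, Tcrg-C4, Klrb1c or Ncr1 was found in 12, 7 and 8 members, and 20 of these 27 had a Cxcr6 UMI. Zbtb16, the factor of natural killer T cells, gave 6 UMIs in 5 members, 4 of them with a Cxcr6 UMI. Trav11, the receptor segment of invariant natural killer T cells, gave 3 UMIs in 3 members, each with a Cxcr6 UMI. Without the 27 cells, Cxcr6 was 13.8 times and Ccr2 21.01 times its naive level, and neither was called. For both genes the mean over both classes then lay under the level limit of 50 CPM. Cxcr6 still stood at 86.5, 58.1 and 88.5 CPM in libraries 1, 2 and 3. Cxcr3 stayed called.

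Gzmk and Eomes marked a further subgroup, found in libraries 1 and 2. Gzmk encodes granzyme K, and Eomes a T-box factor of cytotoxic and memory cells. Of 30 members with a Gzmk UMI, 15 had an Eomes UMI, against 1.49% of the 202 others, and 63.3% had a UMI of Tox, a factor of chronically stimulated T cells, against 24.3%. None of the members with a Gzmk UMI had a Klrb1c or Ccr9 UMI. The 33 members with either gene were 24 in library 1 and 9 in library 2, with CD44 medians of 125.5 and 185, below the medians of 175 and 224 of all members of those libraries.

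**Figure D4:**
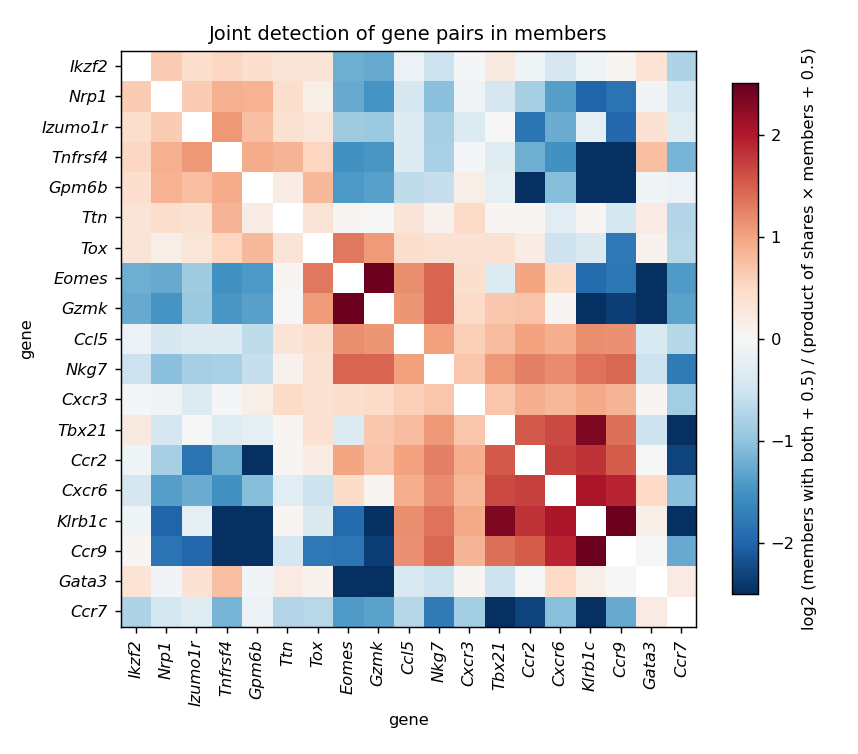
Joint detection of 19 genes in the 232 members. Colour gives the log2 of members with a UMI of both genes over the number that the product of the shares would give, after adding 0.5 to each, from blue (fewer) through white to red (more). Ikzf2, Nrp1, Izumo1r and Tnfrsf4 form a red block at the upper left, Eomes and Gzmk a pair, and Cxcr6, Klrb1c, Ccr9, Ccr2 and Tbx21 a block towards the lower right.

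The libraries were then compared within the class. A gene was called where its highest library was at least 2 times its lowest and their intervals did not overlap, among genes of at least 50 CPM. Of 3448 genes, 186 (5.39%) were called, with the highest level in library 1 for 92 (2.67%), in library 2 for 29 (0.841%) and in library 3 for 65 (1.89%). These calls describe 3 libraries, whose groups are not known, and not a treatment or an age.

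RNA of other cell types differed between the libraries as well. By the ratio of highest to lowest library, the 10 leading genes were Hba-a2, S100a9, Hba-a1, Ifitm3, Chil3, Ifitm2, Hbb-bt, S100a8, Mcpt8 and Gzmk, and all but the last are genes of red cells, myeloid cells or basophils, or induced by interferon. A UMI of the 5 erythroid genes was found in 72 of 72 members of library 1, 31 of 87 of library 2 and 30 of 73 of library 3, and of the 4 neutrophil genes in 61, 15 and 9. Naive cells of library 1 had the same pattern, with 90 and 83 of 93 cells, and a neutrophil UMI was found in 84.5%, 14.8% and 22.4% of B cells. In addition, 8 members (4, 2 and 2) held 10 or more UMIs of another lineage. One in library 2 had 361 neutrophil UMIs, one in library 3 had 773 erythroid UMIs, one in library 1 had 219 monocyte and macrophage UMIs and one in library 1 had 49 UMIs of the basophil gene Mcpt8, which were all the Mcpt8 UMIs of the class.

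Without these 8 cells, 224 members remained (68, 85 and 71) and 154 of 3416 genes were called, 65, 28 and 61 by highest library. Chil3, Mcpt8, Ifitm3, Lyz2, Plac8 and all 4 called genes of the S100, annexin and galectin list were no longer called. Red cell and neutrophil genes were still among the leading calls, with library 1 highest, at 22.5 times between the highest and the lowest library for Hbb-bt, 21.5 times for S100a9, 14.1 times for S100a8, 10.2 times for Hba-a1 and 7.30 times for Hba-a2. The interferon-induced gene Ifitm2 differed 16.8 times. The genes of T cells named next were called with and without the 8 cells.

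Of the Th1 list, 3 of 9 tested genes were called between libraries, and of the cytotoxic list 3 of 6, each with library 1 highest. Over all tested genes, 5.39% were called between libraries, and 2.67% with library 1 highest. The level limit was set on all libraries together, so a gene can enter through the library where it is high. Gzmk and Eomes reached it largely through library 1, and the list counts are descriptions only. Il18r1 and Cxcr6 of the Th1 list, highest in library 3, were not called, and Ccr9 was called with library 3 highest. Without the 8 cells, Ccl5 stood at 11942, 2041 and 827.5 CPM in libraries 1, 2 and 3, Nkg7 at 1029, 393 and 298 CPM, Gzmk at 283, 56.6 and 0 CPM and Eomes at 128, 43.3 and 0 CPM. With all members, Gzmk had been 250.5 (193 to 319), 55.0 (32.1 to 88.1) and 0 CPM, in 22, 8 and 0 members. Library 3, with no UMI in its 73 members, was set to 3 counts (13.03 CPM) for the ratio. That value is no upper limit of the level. In naive cells Gzmk stood at 4.65, 13.5 and 0.463 CPM. The order of the libraries was the same in all 4 genes, with library 1 above library 2 and library 2 above library 3.

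Tox, Tnfrsf4 and Ttn went with them. Tox stood at 281 (221 to 354), 100.4 (68.2 to 142) and 56.5 (30.1 to 96.5) CPM in effector memory cells, against 69.8, 51.7 and 56.9 CPM in naive cells, so that library 3 had no more than its naive cells. Tnfrsf4 stood at 277 (217 to 349), 178 (134 to 232) and 26.1 (9.56 to 56.7) CPM, against 16.3, 11.2 and 10.6 CPM. Ttn, the gene of the giant muscle protein titin, here also read in T cells, stood at 262 (203 to 332), 233 (182 to 294) and 34.7 (15 to 68.5) CPM, against 6.98, 3.37 and 0 CPM. For Tnfrsf4 and Ttn, libraries 1 and 2 overlapped and library 3 lay below both. Of the other lists, Ccr2, Hopx, Junb, Nfkbia and Tnfsf8 were also called with library 1 highest, and Izumo1r and Cd200 with library 2 highest.

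Of 12 tested genes of the naive list, 4 were called between libraries (5.39% over all tested genes), Satb1, Tcf7, S1pr1 and Il6ra. All 4 were highest in library 3 and lowest in library 1. Satb1 stood at 131 (90.7 to 183), 165 (123 to 217) and 378 (303 to 466) CPM in effector memory cells, against 614, 636 and 759 CPM in naive cells. Tcf7, given above, was 2.32 times as high in library 3 as in library 1, and S1pr1, the receptor that lets T cells leave tissue, stood at 224 (169.7 to 289), 333 (272 to 404) and 499 (412 to 599.5) CPM, against 424, 518 and 455 CPM. Foxp1 was also called without the 8 cells. Igfbp4 and Dapl1, given above, were under the level limit of this comparison and had their highest level in library 1. The share of members with a single S100a4 or Itgb1 UMI, 14 of 72, 20 of 87 and 31 of 73, moved with this order, and its part was not tested. With at least 2 such UMIs required, Satb1 differed 1.94 times and was no longer called.

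**Figure D5:**
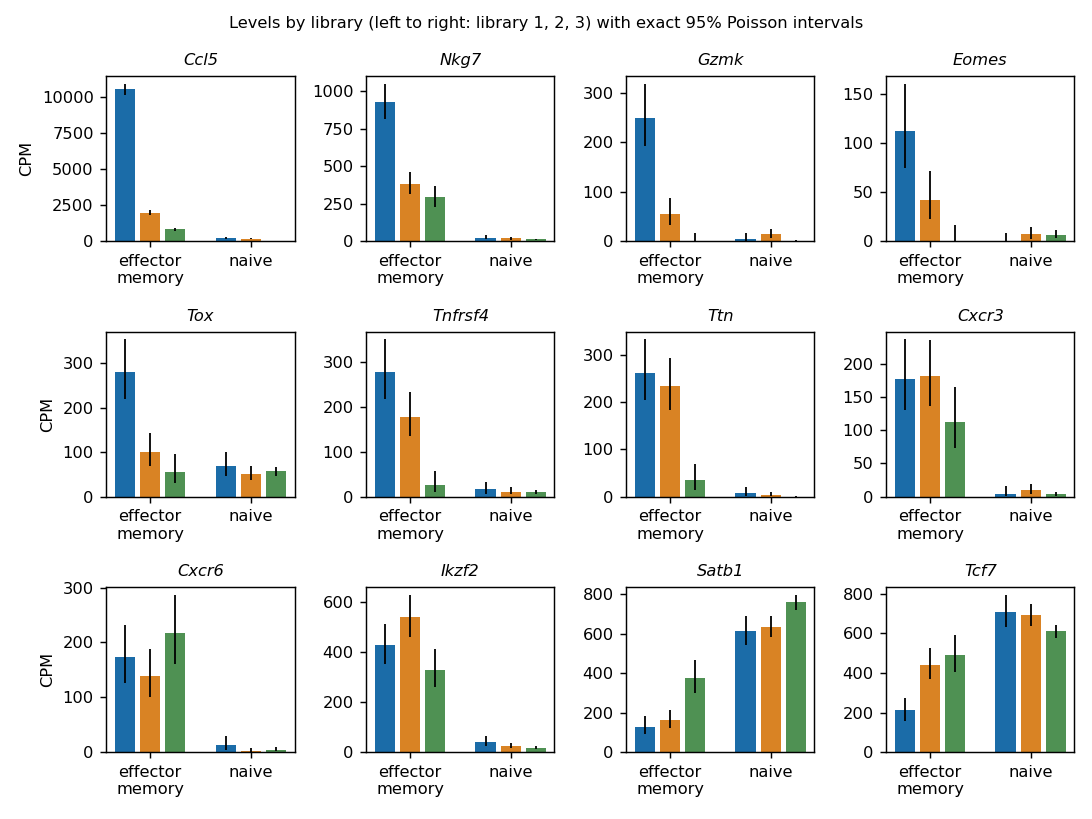
Level (y axis, CPM, a separate scale from 0 in each panel) of 12 genes in effector memory and naive CD4 cells (x axis), with bars for libraries 1 (blue), 2 (orange) and 3 (green) and exact Poisson 95% intervals as lines. Ccl5, Nkg7, Gzmk, Eomes, Tox and Tnfrsf4 are highest in library 1 of the effector memory cells, Satb1 and Tcf7 in library 3, and the intervals of Cxcr3 and Cxcr6 overlap between libraries.

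Cxcr3, Cxcr6 and Ikzf2 were not called between libraries, with 1.61, 1.56 and 1.64 times between the highest and the lowest. Neither were Id2 (1.05), Rora (1.06), Gata3 (1.21), Ahnak (1.10) or Il2rb (1.32). All were under 2 times. The Ikzf2 intervals of library 2 (462 to 629 CPM) and library 3 (260.1 to 413 CPM) nevertheless lay apart. With library 1 left out, 45 genes were called between the other libraries, while 149 were called without library 2 and 83 without library 3.

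Beside the other CD4 classes and the memory-like CD8 cells, the effector memory cells had the highest Cxcr6 level when all members were counted. It stood at 0, 3.99 and 6.25 CPM in regulatory cells, 77.2, 12.3 and 10.8 CPM in follicular helper-like cells and 128, 97.1 and 53.1 CPM in memory-like CD8 cells, below the 173, 139 and 217 CPM of the class in every library. In library 1 the memory-like CD8 level lay inside the interval of the class (126 to 232), so the pair does not differ beyond counting error there. In library 2 it lay just under the interval of the class given above and has counting error of its own. A difference beyond counting error is thus not shown there either. The order also rests on the 27 cells with an innate-like gene, since without them Cxcr6 stood at 86.5 (50.4 to 138), 58.1 (33.2 to 94.3) and 88.5 (52.5 to 139.9) CPM in the class, below the memory-like CD8 cells in libraries 1 and 2. Cxcr3 was spread wider, at 145, 136 and 37.5 CPM in regulatory, 106, 139.9 and 122 CPM in follicular helper-like and 153, 151 and 106 CPM in memory-like CD8 cells. Ccl5 stood at 14333, 1095 and 2689 CPM in follicular helper-like and at 19742, 9782 and 5109 CPM in memory-like CD8 cells, and at 318, 323 and 169 CPM in regulatory cells. Library 1 had the highest Ccl5 in each class with high levels. Id2 was highest in the effector memory cells, at 509, 518 and 495 CPM, against 466 (inside the interval of the class, 426 to 603), 292 and 345 CPM in memory-like CD8, 232, 169 and 202 CPM in follicular helper-like and 151, 116 and 53.1 CPM in regulatory cells. This order also rests on the members with a Cxcr6 UMI. The Id2 level given above for members without one, over the libraries, lay under the memory-like CD8 level of each library. In the Cxcr6 and Id2 comparisons the memory-like CD8 cells were kept whole. A part of the effector memory class thus stands beside a whole class there.

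Maf, a rule gene of which 1 alone was allowed, was found in 110 members at 435, 456 and 347 CPM, against 967, 1066 and 871 CPM in follicular helper-like cells. Il21, the helper cytokine, gave 21 UMIs in 11 members and 261 CPM in follicular helper-like cells of library 2, so the class borders on the follicular helper-like cells where the number of detected genes decides. Cd8a and Cd8b1 together gave 2, 2 and 5 UMIs in the class. The natural killer list (Ncr1, Klrb1c, Tyrobp and Fcer1g, of which myeloid cells also express the last pair) summed to 674, 126 and 95.5 CPM, against 23.3, 25.8 and 31.9 CPM in naive cells, with Ncr1 at 0 in the class. Of its 175 UMIs in library 1, 80 were in a single cell. B cell genes were found in 52.8%, 72.4% and 76.7% of members at 301, 596 and 569 CPM, against 19315, 15029 and 10808 CPM in B cells.

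T cell receptor beta variable segments were read in few cells, as the assay counts the 3′ ends of transcripts. A segment UMI was found in 83 members (27, 35 and 21) and in 275 naive cells. Trbv2 was the most frequent in both, in 15 members with a segment (18.1%) and 57 naive cells (20.7%). Trbv13-2 was found in 13 members (15.7%) and 24 naive cells (8.73%), and Trbv20 in 10 members (12.0%) and 17 naive cells (6.18%). Dividing cells were few, since none of the 8 cell cycle genes reached the level limit and Mki67, a marker of cycling cells, gave 33 UMIs in 18 members (7.76%, beside 4.02% of B cells). Of the 6 T cell genes that the study itself singled out on these libraries, and which are therefore no independent evidence, Nkg7 was called higher and 3, among them Dapl1 and Satb1, lower than in naive cells, while Tox and Foxp1 were not called. The shares over all tested genes were 3.14% higher and 0.508% lower.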

How the data were processed

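Splenocytes of 3 groups were profiled by 10x 3′ CITE-seq with TotalSeq-B antibodies. Per the labels and the header of the deposited matrix, the authors aligned reads to mm10 and made whole-number counts of UMIs per gene and antibody with Cell Ranger 5.0.1, joining the libraries into 1 matrix. Seurat is also named in the submitters' notes. The deposited counts (31053 genes, 34 antibodies, 29005 barcodes, 102118281 RNA UMIs) were used without correction for free RNA. Cells were selected as described, and counts were summed per class and library. Doublets were marked with Scrublet in scanpy 1.11.5 (0.786%, 3.49% and 2.47% of kept cells) and removed only as an alternative. Python 3.11.15, numpy 2.4.6, scipy 1.17.1, pandas 2.3.3 and, for TMM factors, edgeR 4.0.16 in R 4.3.3 were used. Gene coordinates came from the mm10 annotation, in which 30934 (99.6%) of the gene IDs were found. The members and gene lists were chosen with earlier results of these data known. Genes named are the markers, up to 4 of the highest members of each list, the 10 most different from naive cells in each direction and the 10 most different between libraries, and some list members, subgroup genes and rule genes named after their values were seen. Naive CD4 cells, other CD4 classes, memory-like CD8 and B cells were used beside the class. The calling steps were tested on simulated Poisson counts without variation between cells, which cannot test calls that rest on a few cells. Alternatives were a higher limit on S100a4 and Itgb1, stricter limits on mitochondrial, naive-state and innate genes, other ratios and level limits, TMM, thinning to 1000 UMIs and leaving out each library. No age or treatment was compared. Some listed genes are not reported here.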

Additional observations from a re-analysis of the deposited data

How the results depend on the processing

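The class held 232 cells in all, 151 under a stricter limit on naive-state RNA and 134 without cells with an Ikzf2 UMI. Leaving out each library in turn gave 145 to 160 cells, 118 to 143 genes higher and 18 to 29 lower than in naive cells, and 45 to 149 genes called between libraries, against 99, 16 and 186 with all 3. The 45 were found without library 1, and 83 without library 3. Genes called higher than in naive cells numbered 214 at a ratio of 1.5, 42 at a ratio of 3, 212 with a level limit of 20 CPM and 62 with TMM factors. Genes called lower numbered 61 at a ratio of 1.5, 2 at a ratio of 3, 46 with TMM and 9 without cells with an Ikzf2 UMI. All 62 higher calls under TMM were among the 99, and all 16 lower calls were among the 46. Among the genes followed, no called ratio to naive cells changed direction, and no call between libraries swapped its highest and lowest library. TMM moved the median log2 ratio of all genes from 0.20 to -0.11. The exclusion of cells with an Ikzf2 UMI, of cells with other lineages' RNA and the looser Cd79a limit were chosen after seeing the data. Of the counts of cells and genes and the CD44 and CD38 ratios, 72 values under an alternative kept to the main one and 14 moved. Of the values for single genes and shares, 728 stayed called, stayed uncalled or, for shares and levels, stayed within the interval of the main value. The direction of uncalled genes was not followed. Another 21 moved beyond their interval, 87 lost and 1 gained a call.

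No paired analysis was possible because each group is 1 library and no result comes from a test. With a single library per class and group, depth limits what can be seen to 9.71 to 13.03 CPM (3 counts), intervals cover counting error only, and cells of 1 library share their source. Free RNA of other cells was not removed.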
